A study of Mus musculus with 10 samples.

Results

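Of the 2335 Ring1b peaks called in mouse embryonic stem cells (ESCs), 468 (20.0%) shared at least 1 bp with an Ezh2 peak and with an H3K27me3 peak and shared no base with a Cbx2 peak. These are called Cbx2-negative peaks here. They were chosen by the ESC peak calls themselves, so everything the ESC lists say about them is description. The Ring1b and H3K27me3 lists of neural stem cells (NSCs) and the gene annotation were not used to choose them. The ESCs were J1 cells, a mouse line for which the labels name no genetic change, grown on inactivated fibroblast feeders with serum and leukemia inhibitory factor and depleted of feeders before harvest. The NSCs were derived in culture from the same J1 line and kept in medium with EGF and FGF. Both were in standard growth conditions, crosslinked in 1% formaldehyde for 10 min, and profiled by ChIP-seq with 1 library per cell type and target and an input for comparison. There were no replicates, so tests over peaks describe regions of these libraries. Each of the 6 lists gives starts and ends in mm9 and no height, and depth per library is unknown from them, so a region without a Cbx2 peak is one where Cbx2 stayed under the calling threshold, whatever its level.

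Polycomb group (PcG) proteins keep developmental genes off in cells that do not use them. PRC1 contains Ring1b, an enzyme that ubiquitinates histone H2A, and may contain a Cbx subunit such as Cbx2, which can bind H3K27me3 and compact chromatin. PRC2 contains Ezh2, which places the H3K27me3 mark, and in ESCs both complexes gather at promoters rich in CpG dinucleotides. Cbx2 is 1 of several Cbx proteins that can fill the same place in PRC1, and no other Cbx protein was analysed here.

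Promoter sequences show what kind of DNA these peaks sat on. The 200 bases upstream of the annotated start site are printed for the 3 widest Cbx2-negative peaks over a protein-coding start site that overlapped both NSC lists (Foxd3, Gm1568, Grm8), for Hand1 and Irx4, among the 3 widest over such a start site that overlapped neither, and for Olig1, which lies near the Cbx2-positive Olig2. Each is read 5′ to 3′ on the strand of its gene from mm9, and capitals mark CG dinucleotides, which read the same on both strands.
Foxd3, chr4:99322790-99322989, plus strand: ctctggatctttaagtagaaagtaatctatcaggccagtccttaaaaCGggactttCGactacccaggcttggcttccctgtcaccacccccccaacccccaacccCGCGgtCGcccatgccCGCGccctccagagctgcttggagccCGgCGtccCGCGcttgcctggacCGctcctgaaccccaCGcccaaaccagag
Gm1568, chr12:81861529-81861728, minus strand: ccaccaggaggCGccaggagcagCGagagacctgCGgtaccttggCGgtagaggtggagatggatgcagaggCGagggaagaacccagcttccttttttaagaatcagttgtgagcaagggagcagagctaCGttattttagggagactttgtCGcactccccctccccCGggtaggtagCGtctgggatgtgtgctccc
Grm8, chr6:28085179-28085378, minus strand: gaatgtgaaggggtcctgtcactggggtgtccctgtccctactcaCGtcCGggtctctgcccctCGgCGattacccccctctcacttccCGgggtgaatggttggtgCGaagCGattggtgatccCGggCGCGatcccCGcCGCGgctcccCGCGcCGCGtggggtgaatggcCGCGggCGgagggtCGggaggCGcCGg
Hand1, chr11:57646321-57646520, minus strand: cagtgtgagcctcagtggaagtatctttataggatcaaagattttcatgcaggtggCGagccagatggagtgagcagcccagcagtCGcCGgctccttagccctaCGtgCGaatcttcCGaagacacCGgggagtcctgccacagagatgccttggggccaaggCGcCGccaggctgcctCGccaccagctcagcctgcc
Irx4, chr13:73397745-73397944, plus strand: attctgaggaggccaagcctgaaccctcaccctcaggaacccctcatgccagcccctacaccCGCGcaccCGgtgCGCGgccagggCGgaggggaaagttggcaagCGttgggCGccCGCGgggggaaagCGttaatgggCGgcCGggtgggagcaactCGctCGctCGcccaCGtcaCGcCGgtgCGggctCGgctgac
Olig1, chr16:91269814-91270013, plus strand: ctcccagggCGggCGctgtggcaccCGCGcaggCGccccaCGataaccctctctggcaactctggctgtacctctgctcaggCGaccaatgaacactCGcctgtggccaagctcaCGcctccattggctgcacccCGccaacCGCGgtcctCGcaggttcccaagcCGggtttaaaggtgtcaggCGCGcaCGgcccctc
The windows held 13 CGs at Foxd3, 9 at Gm1568 and 23 at Grm8. They held 10 at Hand1, 21 at Irx4 and 17 at Olig1, so the counts of the NSC-bound and the unbound examples overlapped. Over the 369 protein-coding start sites inside Cbx2-negative peaks the median was 14 CGs, and 367 windows (99.5%) held at least 1. Among the promoters of all protein-coding genes the median was 7, and 90.4% held at least 1. The median was 13 at start sites inside Ring1b peaks that overlapped Ezh2, H3K27me3 and Cbx2. Start sites in Cbx2-negative peaks with an NSC H3K27me3 peak had a median of 15 CGs, and those with neither NSC peak had 14.

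Cbx2-negative peaks were narrower than Ring1b peaks with Ezh2, H3K27me3 and Cbx2, and wider than the Ring1b list as a whole. Their median width was 2800 bp, with quartiles of 2200 bp and 3400 bp, a lowest of 1000 bp and a highest of 12600 bp. Only 20 (4.27%) reached 6000 bp and 253 (54.1%) were under 3000 bp, where all 2335 Ring1b peaks had a median of 2200 bp and 66.0% under 3000 bp. The 371 Ring1b peaks that overlapped Ezh2, H3K27me3 and Cbx2, called Cbx2-positive here, had a median of 7000 bp. Of these, 212 (57.1%) reached 6000 bp. A Ring1b peak with Cbx2 that lacked Ezh2 or H3K27me3 was not counted among them. The 546 Ring1b peaks with H3K27me3 and without Ezh2 or Cbx2, called Ezh2-negative here, had a median of 2000 bp. A wide peak has more room to meet any other list, which is how the groups were made, so no test was applied to width, and the results on NSC peaks are also given within bands of width.

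**Figure D1:**
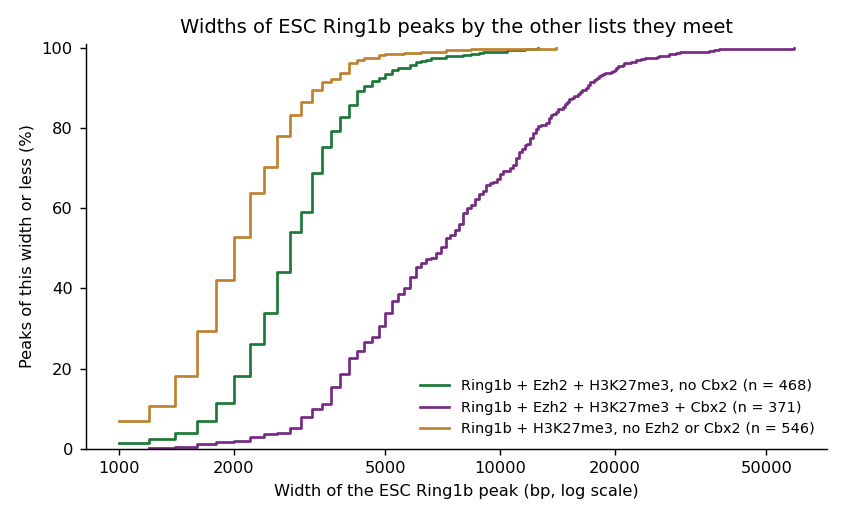
Cumulative share of ESC Ring1b peaks (%, vertical) by width (bp, log scale, horizontal) for the 468 Cbx2-negative, 371 Cbx2-positive and 546 Ezh2-negative peaks. The Cbx2-negative curve lies between the other two, close to the Ezh2-negative curve, with medians of 2800, 7000 and 2000 bp.

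Within a Cbx2-negative peak, PRC2 and its mark took up most of the Ring1b interval. H3K27me3 covered a median of 2000 bp (200 to 6200 bp), a median of 78.0% of the peak, and Ezh2 covered 1600 bp (200 to 5000 bp), a median of 62.5%. In 460 peaks (98.3%) there was exactly 1 Ezh2 and 1 H3K27me3 peak, and in 453 (96.8%) the pair shared bases. H3K27me3 covered more bases than Ezh2 in 296 (63.2%). Hand1, a bHLH factor of heart and placenta, went the other way, with 4400 bp of Ezh2 and 1000 bp of H3K27me3 in an 8000 bp peak.

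Few of the peaks lay near a called Cbx2 peak. This distance does not show how close Cbx2 came to the calling threshold inside them, which the lists cannot give. The nearest Cbx2 peak was a median of 1220100 bp away (2000 to 9039200 bp), and 3 peaks had one within 5 kb. These were a peak on chromosome 17 from 69189401 to 69191800 (2000 bp from Cbx2), the 1000 bp peak near Tbx4 on chromosome 11 (3400 bp) and the peak over Cdkn2c on chromosome 4 (4400 bp). On the other side of the rule, the Cbx2-positive peak over Gabbr2 held only 200 bp under Cbx2, and that over Igfbp5 held 1000 bp. All 5 overlapped neither NSC list, as did 59.2% of Cbx2-negative, 31.5% of Cbx2-positive and 66.4% of all ESC Ring1b peaks. These 5 were picked by their distance from Cbx2 or their bases under it, and a link with the NSC lists was not tested.

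Most Cbx2-negative peaks sat on promoters. A protein-coding start site lay within 1 kb of 380 of the 468 (81.2%, exact 95% Clopper-Pearson interval 77.4% to 84.6%), where 71.3% of all ESC Ring1b peaks had one. The share was 81.4% (302 of 371) for Cbx2-positive peaks, a difference of -0.205 percentage points whose 95% Newcombe interval ran from -5.45 to 5.18 (adjusted p = 1.00 in a two-sided Fisher's exact test, over 10 tests). Among peaks under 3000 bp the difference was 53.9 points, on 19 Cbx2-positive peaks of which 5 had a start site (adjusted exact p = 2.06e-05). Ezh2-negative peaks had a start site less often, in 380 of 546 (69.6%), a difference of 11.6 points (6.30 to 16.8, adjusted exact p = 3.36e-05). A start site lay inside 354 Cbx2-negative peaks (75.6%), and 15 (3.21%) held more than 1. A further 15 held the start of another gene type alone, among them Mir124a-3 and Mir375, which encode microRNAs of neurons and of pancreatic islets. No protein-coding start site lay within 5 kb of 70 peaks (15.0%).

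The bound interval extended into the gene. Among the 339 Cbx2-negative peaks with exactly 1 start site, the centre of the peak lay a median of 552 bp downstream of it, and in 302 (89.1%) it lay downstream. At the start site itself 68.0% of 369 sites were under Ezh2 and 74.3% under H3K27me3. One kilobase into the gene these were 74.5% and 84.3%, and 1 kb upstream 11.7% and 27.1%. Ring1b covered 94.0% of sites 1 kb downstream, 47.2% at 2 kb and 2.98% at 5 kb. At the 347 start sites in Cbx2-positive peaks, 45.8% still had Ring1b 5 kb downstream and 31.4% had it 5 kb upstream. At 2 kb these sites had Ring1b in 90.8% downstream and 61.4% upstream, so the lean into the gene was not particular to Cbx2-negative peaks. The offset of the peak centre was not computed for other groups.

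**Figure D2:**
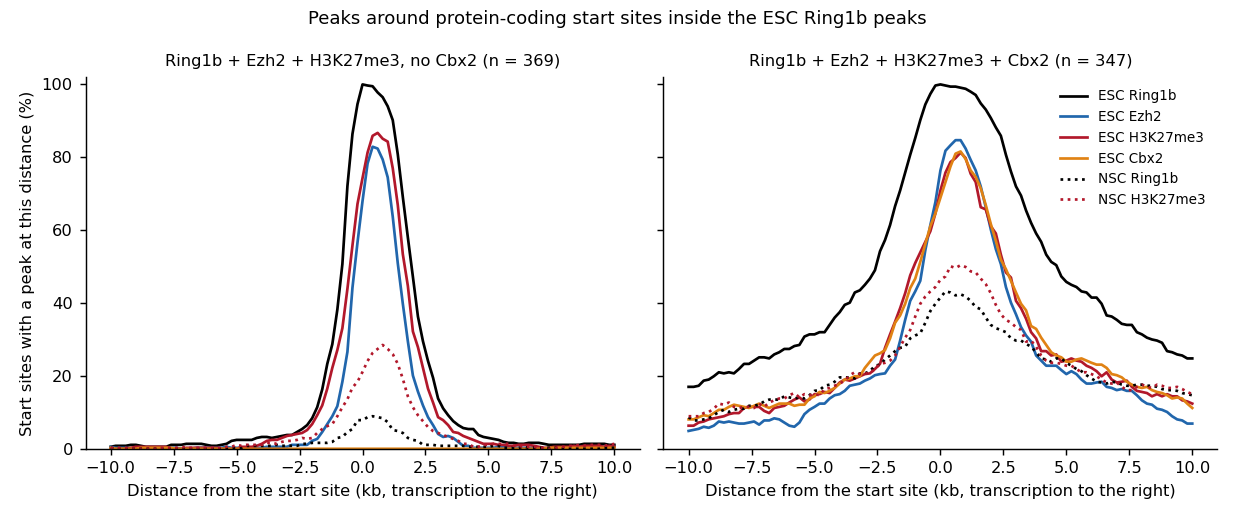
Share of start sites with a peak (%, vertical) by distance from the start site (kb, transcription to the right) for 369 sites in Cbx2-negative (left) and 347 in Cbx2-positive peaks (right), 1 line per list. On the left the ESC lines form 1 narrow hump just downstream of the start and the NSC H3K27me3 line reaches 27.4% at 1 kb, while on the right the Ring1b line stays at 45.8% at 5 kb.

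The DNA of these peaks was GC-rich, with a median GC content of 59.0%, 55.0 CpGs per kb and a ratio of observed to expected CpGs of 0.643, close to the 58.3%, 54.2 per kb and 0.642 of all ESC Ring1b peaks. Cbx2-positive peaks had 53.9% GC and 42.4 CpGs per kb, over intervals that run farther from the start site. Ezh2-negative peaks had 60.1% and 59.3 per kb. CpG density did not order the Cbx2-negative peaks by NSC H3K27me3. NSC H3K27me3 overlapped 32.7% of the 156 peaks of lowest density, 35.9% of the middle 156 and 32.7% of the highest 156. In the same order NSC Ring1b overlapped 9.62%, 13.5% and 13.5%, and neither list 62.8%, 57.1% and 57.7%. These shares were not tested.

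In NSCs, most Cbx2-negative regions had neither PcG signature. Of the 468, 277 (59.2%, 54.6% to 63.7%) overlapped neither an NSC Ring1b nor an NSC H3K27me3 peak. H3K27me3 alone overlapped 134 (28.6%, 24.6% to 33.0%), Ring1b alone 33 (7.05%, 4.90% to 9.76%), and both 24 (5.13%, 3.31% to 7.53%). Over all ESC Ring1b peaks, 66.4% overlapped neither, 11.7% both, 19.6% an NSC Ring1b peak and 25.7% an NSC H3K27me3 peak. Of the Cbx2-negative peaks, 57 (12.2%, 9.36% to 15.5%) overlapped any NSC Ring1b peak and 158 (33.8%, 29.5% to 38.2%) any NSC H3K27me3 peak.

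Cbx2-positive peaks differed from them most in NSC Ring1b. An NSC Ring1b peak overlapped 197 of 371 Cbx2-positive peaks (53.1%), a difference of -40.9 percentage points for the Cbx2-negative ones (-46.6 to -34.9, adjusted p = 9.65e-38 in the same exact test). Both NSC peaks overlapped 170 Cbx2-positive peaks (45.8%), a difference of -40.7 points (-46.0 to -35.2, adjusted exact p = 2.89e-45). Differences in H3K27me3 (-27.4 points, adjusted p = 5.66e-15) and in the share with neither (27.7 points, adjusted exact p = 4.50e-15) were smaller. Among peaks of 3000 to below 6000 bp, 195 Cbx2-negative and 140 Cbx2-positive, the difference in NSC Ring1b was -19.5 points (adjusted exact p = 1.23e-04) and in both -17.6 points (adjusted exact p = 9.58e-05). In that band the difference in H3K27me3 was -10.8 points (adjusted p = 0.0953) and in neither 12.7 points (adjusted exact p = 0.0665), so these calls did not pass there. Cbx2-positive peaks were still the wider ones within the band, so each of these differences still includes a difference in width.

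Among Cbx2-negative peaks with NSC H3K27me3, NSC Ring1b was about as rare as among all Cbx2-negative peaks (12.2%). Of the 158 Cbx2-negative peaks with NSC H3K27me3, 24 (15.2%, 9.98% to 21.8%) also had NSC Ring1b. Over all ESC Ring1b peaks with the NSC mark it was 273 of 600 (45.5%), and over Cbx2-positive peaks 170 of 227 (74.9%). The difference of -59.7 points from Cbx2-positive peaks (-66.7 to -50.9) was tested after the counts had been seen (adjusted p = 9.62e-32 in Fisher's exact test, over 8 tests). At 3000 to below 6000 bp it was 13 of 75 (17.3%) against 34 of 69 (49.3%), a difference of -31.9 points (adjusted exact p = 1.94e-04). Ezh2-negative peaks gave 25 of 97 (25.8%), and the difference of -10.6 points from them did not pass after adjustment (-21.2 to -0.588, adjusted exact p = 0.0979).

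Against Ezh2-negative peaks, the Cbx2-negative ones differed in NSC H3K27me3 and not detectably in NSC Ring1b. NSC H3K27me3 overlapped 97 of 546 Ezh2-negative peaks (17.8%), a difference of 16.0 points (10.6 to 21.3, adjusted p = 1.07e-08), and neither list overlapped 408 (74.7%), a difference of -15.5 points (adjusted exact p = 2.45e-07). Ring1b overlapped 66 (12.1%), a difference of 0.0916 points with an interval from -3.92 to 4.20 (adjusted exact p = 1.00). Among peaks under 3000 bp, 253 Cbx2-negative and 454 Ezh2-negative, NSC H3K27me3 overlapped 28.1% and 16.1%, and neither list 64.4% and 77.3%, a difference of -12.9 points (adjusted exact p = 7.41e-04 for each comparison). At 3000 to below 6000 bp the H3K27me3 difference was 12.6 points (adjusted p = 0.0953) and that in neither was -7.48 points (adjusted exact p = 0.367), and with 195 and 85 peaks neither passed the threshold.

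**Figure D3:**
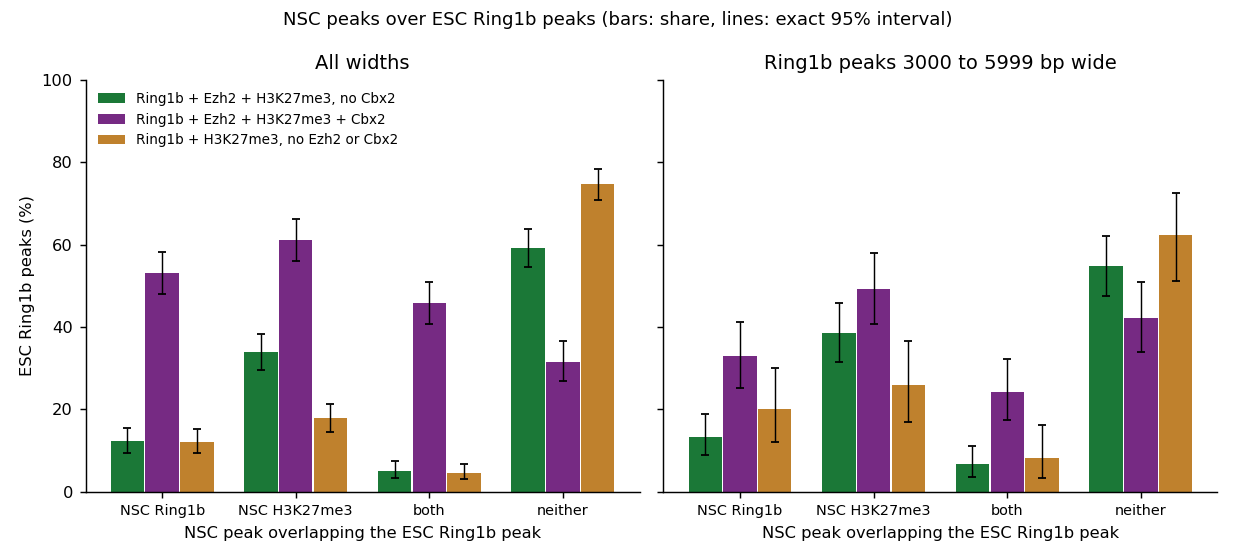
Share of ESC Ring1b peaks (%, vertical) that overlapped an NSC Ring1b peak, an NSC H3K27me3 peak, both or neither, at all widths (left) and at 3000 to below 6000 bp (right). Bars are shares and lines are exact 95% intervals. On the left, Cbx2-negative peaks stand level with Ezh2-negative ones in NSC Ring1b (12.2% and 12.1%) and lie between the other groups in NSC H3K27me3 (33.8%).

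Within the Cbx2-negative peaks the share with NSC H3K27me3 was higher in wider peaks, which was not tested. It overlapped 28.1% of those under 3000 bp, 38.5% of those from 3000 to below 6000 bp and 60.0% of the 20 at 6000 bp or more. Over all ESC Ring1b peaks it overlapped 15.0%, 36.8% and 66.0% in these bands, so the rise was not particular to Cbx2-negative peaks. In Cbx2-negative peaks the NSC Ring1b shares did not show this order, at 11.5%, 13.3% and 10.0%. The last is 2 of 20 peaks (1.23% to 31.7%), too few to exclude a rise. Over all ESC Ring1b peaks NSC Ring1b did, at 11.7%, 21.6% and 61.5%, and 212 of the 262 widest of these were Cbx2-positive. The NSC H3K27me3 peak was narrower than the ESC one in 95 of the 158 (60.1%) and wider in 53 (33.5%). This was counted in Cbx2-negative peaks only, between single libraries of unknown depth. Peaks with and without a start site gave close shares. Neither NSC list overlapped 57.3% of the 354 peaks with a start site inside and 62.9% of the 70 with none within 5 kb.

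Among Cbx2-negative peaks that held a protein-coding start site, the 8 widest with both NSC peaks were led by Foxd3, a forkhead factor of pluripotent and neural crest cells. Its peak ran from 99317401 to 99330000 on chromosome 4 (12600 bp) and covered the single exon block of the gene, and it held 2800 bp of H3K27me3 and 1800 bp of Ezh2 in ESCs. In NSCs it held 10800 bp of Ring1b and 10200 bp of H3K27me3, so that the mark covered more of the peak than in ESCs. The next ones were Gm1568, Grm8 and Nkx1-2, at 4400 bp each. Grm8, a glutamate receptor gene, had its start and 4 of its 17 exon blocks under the ESC peak. Within that peak it had 1400 bp of NSC Ring1b and 1800 bp of NSC H3K27me3. Nkx1-2, a homeobox gene, had 1000 bp and 3400 bp. Slc30a3, a zinc transporter of synaptic vesicles, shared its 4200 bp peak with the start of Gm9924, and NSC Ring1b covered all 4200 bp. Klf14 (zinc finger factor, 3600 bp), Begain (postsynaptic protein, 3400 bp) and Bhlhe22 (neuronal bHLH factor, 3400 bp) completed the set, with 2400, 1600 and 2600 bp of NSC Ring1b.

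Of the 8 widest over a protein-coding start site with neither NSC peak, 7 held a transcription factor gene. These 8 were picked by width and do not stand for the class. Listed transcription factors were 21 of all 211 genes with neither NSC peak and 39 of all 369 genes in Cbx2-negative peaks. They were 5 of the 21 genes with both NSC peaks. Nxph4, a secreted ligand of neurexins, had the widest, 11600 bp on chromosome 10 from 126961601 to 126973200, over both exon blocks. Hand1 followed (8000 bp, all 3 exon blocks), then Irx4, a homeobox gene of the heart ventricle (6400 bp), and Sox3, a factor of neural progenitors (6200 bp). Egr2, a hindbrain and Schwann cell factor, had 6000 bp, Bhlhe41, a circadian repressor, and Esx1, a placental homeobox gene, had 5800 bp each, and Dlx4, a homeobox gene, had 5600 bp. Nes, which encodes the intermediate filament of neural stem cells and is used as an NSC marker, was in this class too, with a 2600 bp peak over its start and 1 of 4 exon blocks.

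The other regions had 1 of the NSC signatures, and the 3 widest over a start site are given for each. With NSC Ring1b alone, the widest was a 10400 bp peak on chromosome 16 over all of Gp1bb and Sept5, of which NSC Ring1b covered 1400 bp. Foxp2, a forkhead factor of brain and lung, had 5400 bp with 2200 bp under NSC Ring1b, and Kif26b, a kinesin family gene, had 4200 bp with 2800 bp. With NSC H3K27me3 alone, Tbx20, a T-box factor of the heart, had a 9200 bp peak with 7000 bp under the NSC mark against 1400 bp in ESCs. Pou4f3, a sensory neuron factor, had 8800 bp with 4000 bp. The peak at 1600029O15Rik, 8400 bp, had 3200 bp.

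Counted by name, 369 of 22208 protein-coding genes (1.66%) had a start site in a Cbx2-negative peak, close to the 342 (1.54%) in Cbx2-positive and 340 (1.53%) in Ezh2-negative peaks, and the gene families among them had other shares. Of 475 transcription factor genes in 4 lists, 39 (8.21%) were in Cbx2-negative and 191 (40.2%) in Cbx2-positive peaks. Of 510 genes in 5 neural lists, 54 (10.6%) were in Cbx2-negative and 10 (1.96%) in Cbx2-positive peaks. Put as a share of each gene set, transcription factors made up 10.6% of Cbx2-negative and 55.8% of Cbx2-positive genes, and neural genes 14.6% and 2.92%, against 2.14% and 2.30% of all genes. In Ezh2-negative peaks transcription factors made up 5.29% and neural genes 8.53%, so that both of these groups had fewer transcription factors and more neural genes than the Cbx2-positive one. Signalling genes made up 7.32% of Cbx2-negative and 7.89% of Cbx2-positive genes. Of all 369 genes in Cbx2-negative peaks, 211 had neither NSC peak and 133 had NSC H3K27me3, which is the background for each family. These lists were described and not tested.

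**Figure D4:**
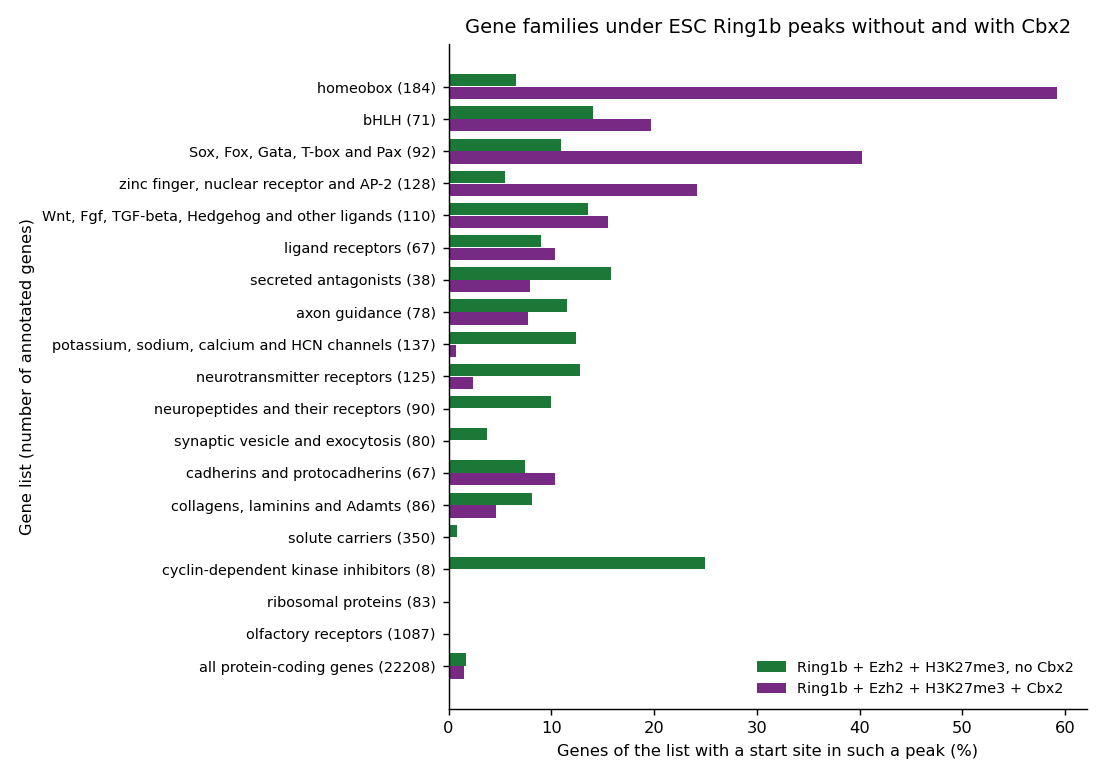
Share of the genes of each list (%, horizontal) with a start site in a Cbx2-negative (green) or a Cbx2-positive peak (purple), with the number of annotated genes in brackets. Homeobox genes reach 59.2% in Cbx2-positive peaks and 6.52% in Cbx2-negative ones, whereas channels reach 0.730% and 12.4%.

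Among transcription factors, 12 of 184 listed homeobox genes (6.52%) were in Cbx2-negative peaks, 109 (59.2%) in Cbx2-positive and 9 (4.89%) in Ezh2-negative ones. Of the 12, 8 had NSC H3K27me3, among them Lmx1a, a dopaminergic neuron factor (6200 bp peak, 4000 bp of the NSC mark), Pou4f2, a retinal ganglion factor (4600 bp, 4000 bp), and Gbx1 (4200 bp, all 4200 bp). Only Nkx1-2 of the 12 also had NSC Ring1b. The symbol pattern missed the homeobox genes Prrxl1 (3800 bp, NSC H3K27me3 alone) and Mkx (4000 bp, neither NSC peak). Of the 10 bHLH genes, 7 overlapped neither NSC list, a share not far from that of all 369 genes, including Hes5, a Notch target (2200 bp), and Twist2 (3200 bp). The Sox, Fox, Gata, T-box and Pax list had 10 of 92 genes (10.9%), 5 with neither NSC peak, and Foxe1, a thyroid factor, had 7200 bp with 3600 bp of the NSC mark. The zinc finger, nuclear receptor and AP-2 list had 7 of 128 (5.47%), 5 with neither, such as Hic1 (5000 bp) and Esrrg (3800 bp). Its symbol pattern missed Tcfap2e, an AP-2 gene (3400 bp, neither NSC peak), and Pgr, a nuclear receptor gene (2800 bp, NSC H3K27me3 alone). It also missed the zinc finger gene Zbtb16 (4000 bp, neither), so the count covers listed genes only.

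Neural function genes were spread over receptors and channels. Potassium, sodium, calcium and HCN channels gave 17 of 137 genes (12.4%) and 1 Cbx2-positive gene (0.730%), with 12 genes (8.76%) in Ezh2-negative peaks. Of the 17, 9 had NSC H3K27me3 and 6 had neither NSC peak. The widest was Kcnk9, a background potassium channel (4400 bp, 2000 bp of the NSC mark), then Cacna2d3, a calcium channel subunit (3800 bp, 1000 bp), and Hcn4, the pacemaker channel (3600 bp, 3400 bp). Neurotransmitter receptors gave 16 of 125 (12.8%), against 3 (2.40%) in Cbx2-positive and 6 (4.80%) in Ezh2-negative peaks. Of these 16, 10 had neither NSC peak, among them Grm4 (4200 bp), and Adra2c, an adrenergic receptor, had 4200 bp with 1200 bp of the NSC mark. Neuropeptides and their receptors gave 9 of 90 (10.0%) and no Cbx2-positive gene. Among the 9, Crhr1 and Sstr1, receptors of CRH and somatostatin, had 1600 bp and 1400 bp of the NSC mark, Npy had 1600 bp over a 2000 bp peak, and Prok2 had both NSC peaks. Trhde, an enzyme that degrades TRH, was counted here by its symbol and had neither. Of 80 synaptic vesicle genes 3 were included, led by Slc32a1, the vesicular GABA transporter (6800 bp, 1000 bp of the NSC mark). Axon guidance genes gave 9 of 78 (11.5%) and 6 (7.69%) in Cbx2-positive peaks. Efna3, Unc5b and Slit2, a ligand of Eph receptors, a netrin receptor and a Robo ligand, had 1600, 1000 and 3800 bp of the NSC mark.

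Among signalling genes, ligands were mostly under NSC H3K27me3 and receptors under no NSC peak. Of 110 ligand genes, 15 (13.6%) were in Cbx2-negative peaks, and 10 of the 15 had NSC H3K27me3. These included Wnt11 (6600 bp peak, 2400 bp of the NSC mark), Wnt10a (5400 bp, 3600 bp) and Bmp6 (3400 bp, all of it), whereas Dll1, a Notch ligand, had 4000 bp with no NSC peak. All 6 of the receptor genes in Cbx2-negative peaks, of 67 in the list, had neither NSC peak, with Gfra1, a GDNF receptor (4000 bp), Erbb4, a neuregulin receptor (3800 bp), and Ntrk2, the BDNF receptor (3400 bp), the widest. This difference between ligands and receptors was not tested. Bmp1, a protease counted among the ligands by its symbol, had a 3200 bp peak with no NSC peak. Secreted antagonists gave 6 of 38 (15.8%), of which Grem1, a BMP antagonist, had 2000 bp of the NSC mark while Fstl4 and Nbl1 had no NSC peak.

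Cadherins and protocadherins gave 5 of 67 genes (7.46%), 4 with NSC H3K27me3, led by Pcdh8 (7400 bp, 5200 bp of the NSC mark) and Cdh11 (4800 bp, 2600 bp). Collagens, laminins and Adamts proteases gave 7 of 86 (8.14%), of which 6 had neither NSC peak, including Adamts2, Col12a1 and Adamts5. Of 8 cyclin-dependent kinase inhibitors, Cdkn1c had a 3400 bp peak over all 4 exon blocks with 1600 bp of the NSC mark, and Cdkn2c had a 3000 bp peak with no NSC peak. Solute carriers gave 3 of 350 listed genes (0.857%), below the 1.66% of all genes, whereas 14 (4.00%) were in Ezh2-negative peaks. The symbol pattern missed Slc35d3 (4600 bp, neither NSC peak). No ribosomal protein gene of 83 and no olfactory receptor gene of 1087 was included.

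Some Cbx2-negative peaks lay beside a Cbx2-positive one, but most did not. A Cbx2-positive peak was within 100 kb of 20 (4.27%) and another Cbx2-negative peak was within 100 kb of 33 (7.05%). Hoxd1 lay 7800 bp from a Cbx2-positive peak with both NSC peaks and had NSC H3K27me3 alone, over 1800 bp of its 2400 bp. Hoxb1 lay 8200 bp from the Cbx2-positive peak at Hoxb2, which had both, and had neither. Olig1, a factor of oligodendrocyte precursors, had a 3200 bp peak 38800 bp from the Cbx2-positive peak over Olig2, and neither of them overlapped an NSC peak. Wnt10a lay 17000 bp from the one over Wnt6, and both had NSC H3K27me3 alone.

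Away from start sites the widest Cbx2-negative peak was 11400 bp on chromosome 8 from 111218801 to 111230200, 8344 bp from the start of Zfhx3, with neither NSC peak. The next was 9000 bp on chromosome 1 from 74846001 to 74855000, 7911 bp from the start of Wnt10a, with 5400 bp of NSC H3K27me3. The third, 6600 bp on chromosome 2 from 61648401 to 61655000, lay 7414 bp from Tbr1, a cortical neuron factor, with neither.

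Peak lists hold no expression, so the identity of the cells was not checked directly. Of 8 ESC marker genes, including Pou5f1 and Nanog, none had its start site under a peak of the ESC lists, and Sox2 was under NSC H3K27me3. Of 8 NSC markers found by name, 4 were under ESC Ring1b, among them Nes and Olig2, and none under NSC Ring1b. Sox2, which NSCs use as well, was the 1 under NSC H3K27me3. Of 6 feeder markers, Twist1 and Prrx1 were under ESC Ring1b and Cbx2, and their part in the results was not tested.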

How the data were processed

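ChIP-seq of Ring1b, Ezh2, Cbx2 and H3K27me3 in ESCs and of Ring1b and H3K27me3 in NSCs was used, with groups taken from sample titles. The 4 input libraries, expression data and nucleosome turnover data were not analysed here. The values deposited by the authors are peak starts and ends (mm9), with no height, score or depth. The methods of the study name Bowtie as the aligner, whereas the submitters' processing notes name BWA. The authors kept tags with few mismatches, discarded positions with anomalous tag numbers, tested 1 kb windows placed every 200 bp against input with a negative binomial distribution whose size parameter was set by inspection, and joined windows no more than 1 kb apart. How tags with several alignments were treated in these lists is not given in the sources used here. Ring1b chromatin had an added EGS crosslink by the paper alone.

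Overlaps (at least 1 bp), start sites and base composition were computed with scipy 1.17.1, pysam 0.24.0, pandas 2.3.3, numpy 2.4.6 and statsmodels 0.14.6 (Python 3.11.15). Genes came from GENCODE vM1 on NCBIM37 (mm9), with 22350 protein-coding genes of 22208 names and 1 start site each, the 5′ end of the gene. Counting 1 start per gene misses alternative promoters. The 18 gene lists were symbol patterns, matched to gene names. They miss family members with other symbols, so family counts and shares cover listed genes only. Named genes were, among Cbx2-negative peaks that held a protein-coding start site, the 8 widest with both and with neither NSC peak and the 3 widest of each other state, and, apart from these, the 3 widest away from start sites, the 3 widest of each list, and Olig1. A gene and a sequence that this rule names are not reported here. Any other gene was picked with its values in view. Shares were compared by two-sided Fisher's exact tests with Benjamini-Hochberg adjustment over 10 comparisons, and over 8 in the conditional shares, which were added after seeing the data. Intervals are exact 95% Clopper-Pearson for shares and Newcombe for differences, and cover counting error only. The overlap and Fisher steps were tested on simulated data. The regions and gene lists were chosen with earlier results of these data known. Alternatives were other overlap rules, minimum widths, merging, autosomes alone, a Cbx2 margin, centred windows, 1 peak per neighbourhood, bands of width and other start-site distances.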

Additional observations from a re-analysis of the deposited data

How the results depend on the processing

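The lists hold no scores, so the calling threshold could not be varied, and minimum widths were tried in its place. With peaks of at least 2 kb in every list, 179 Cbx2-negative peaks were left (median width 3600 bp), of which 67.6% overlapped neither NSC list and 84.9% had a start site within 1 kb. With NSC peaks of at least 2 kb only, 80.8% of the 468 overlapped neither and 1.71% both. A start site lay inside 75.6% and within 5 kb of 85.0%. Differences are in percentage points. From Cbx2-positive peaks, the differences in NSC Ring1b and in both NSC peaks passed the threshold in each band of width. Under 3000 bp, at 3000 to below 6000 bp and at 6000 bp or more, the difference in neither was 22.3, 12.7 and 11.4 and in NSC H3K27me3 -24.6, -10.8 and -9.81, none past the threshold. The start-site difference turned positive under 3000 bp (53.9), at 3000 to below 6000 bp (2.56), with a 5 kb margin from Cbx2 (0.104) and with a start within 5 kb (0.946). From Ezh2-negative peaks, the differences in neither (-12.9) and in NSC H3K27me3 (28.1% against 16.1%) passed under 3000 bp, whereas at 3000 to below 6000 bp and at 6000 bp or more, the differences no longer passed in neither (-7.48 and -22.1) and in NSC H3K27me3 (12.6 and 31.4), nor at 6000 bp or more in start sites (8.57). The near-zero NSC Ring1b difference turned negative in those bands (-6.67 and -18.6), with 1 peak per 100 kb (-0.0312), with 5 kb centred windows (-0.0916) and with NSC peaks of at least 2 kb (-0.885), and the difference in both did so in those bands (-1.57 and -9.29) and with NSC peaks of at least 2 kb (-0.122). Narrower bands hold fewer peaks, and the cause of these changes was not tested. No paired analysis was possible because each group has 1 library, and leaving out a replicate was not possible for the same reason.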
